A study of Mus musculus with 8 samples.

Results

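The early growth response (EGR) factors and the NAB proteins that restrain them were followed across sorted mouse thymocytes in which Bcl6, a zinc-finger repressor, was or was not targeted for deletion. The 5 genes Egr1, Egr2, Egr3, Nab1 and Nab2 were chosen by name. All 5 were listed in all 8 libraries, among 12133 genes in vitro and 12665 in vivo, and all 5 passed the filter on low values in both systems. The labels name 4 groups of 2 libraries: KO in vitro, WT in vitro, KO in vivo and WT in vivo. KO libraries carry Bcl6fl/fl Cd4cre and WT libraries carry Bcl6fl/fl, so loxP-flanked Bcl6 alleles are shared by every animal and the groups differ in Cre. The Cd4 promoter drives Cre, so recombination is expected from the double-positive stage onward and not before. For the in vitro groups, double-positive (CD4+CD8+) thymocytes were cultured for 24 h with plate-bound antibodies to CD3 and CD28 at 8 µg/ml each, after which double-negative cells were sorted. For the in vivo groups, CD4-CD8-CD5+TCRb+ thymocytes, labelled agonist-p, were sorted straight from the thymus. Neither the age of the mice nor whether replicates came from separate animals or cultures is given in the labels, so the p-values below reflect spread among libraries that may be technical.

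EGR factors are immediate early zinc-finger proteins that bind a GC-rich element and switch on within minutes of T cell receptor (TCR) signalling. Ras and ERK act on Egr1 through serum response factor (SRF), and calcium and NFAT act on Egr2 and Egr3. In the thymus Egr1, Egr2 and Egr3 are known for their parts in positive selection and in the development of natural killer T cells, with Id3 among their targets. Nab1 and Nab2 encode corepressors that dock on the EGR proteins and recruit the NuRD chromatin complex through CHD4. Nab2 is itself a known EGR target, which closes a negative feedback loop.

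Promoter sequence was drawn for the 3 of 5 members with a window in the RefSeq promoter set used here (GRCm38.p6, 250 bases before to 50 after an annotated start). That set held no window for Egr1 or Egr3. Sequence is shown because SRF and EGR elements are the ones named above. Motifs were searched on both strands. The Egr2 window shown lies at chr10:67537619-67537918 on the plus strand and is 1 of 5 RefSeq windows of this gene. Its capitals mark a CArG box, the element bound by SRF, at -72 from the start. The Nab1 window lies at chr1:52500399-52500698 on the minus strand, and its capitals mark 3 matches to the EGR element GCGNGGGCG, at -141 in the reverse orientation and at -109 and -38. The Nab2 window lies at chr10:127666654-127666953 on the minus strand and held no match.
Egr2: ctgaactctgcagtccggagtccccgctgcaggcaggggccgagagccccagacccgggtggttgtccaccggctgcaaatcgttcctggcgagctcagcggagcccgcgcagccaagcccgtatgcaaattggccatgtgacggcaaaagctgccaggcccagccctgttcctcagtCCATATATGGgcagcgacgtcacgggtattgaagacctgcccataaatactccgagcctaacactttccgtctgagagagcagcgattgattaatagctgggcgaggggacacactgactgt
Nab1: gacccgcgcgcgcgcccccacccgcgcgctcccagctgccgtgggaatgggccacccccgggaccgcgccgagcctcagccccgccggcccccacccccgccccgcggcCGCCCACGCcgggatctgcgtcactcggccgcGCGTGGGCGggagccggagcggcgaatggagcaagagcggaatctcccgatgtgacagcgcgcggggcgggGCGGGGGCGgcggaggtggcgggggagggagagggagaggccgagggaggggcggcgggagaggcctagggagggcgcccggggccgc
Nab2: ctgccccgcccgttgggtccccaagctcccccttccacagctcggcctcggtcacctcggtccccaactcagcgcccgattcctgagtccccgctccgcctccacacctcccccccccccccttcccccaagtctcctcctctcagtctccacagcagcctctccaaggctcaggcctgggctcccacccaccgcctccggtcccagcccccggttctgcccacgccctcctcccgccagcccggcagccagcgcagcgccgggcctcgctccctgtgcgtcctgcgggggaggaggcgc
The CArG box letters in Egr2 are CCATATATGG. The EGR matches in Nab1 read CGCCCACGC, GCGTGGGCG and GCGGGGGCG along the printed strand, and they do not overlap each other.

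Among 32851 promoter windows of this length, 5.55% held at least 1 EGR match, 0.195% held 3 or more, and 1.63% held a CArG box. The other motifs searched were the cAMP response element TGACGTCA (1.79% of windows), a core BCL6 element written TTCCNNGAA (4.81%) and the ETS element CCGGAAG (8.86%). None of these 3 was found in the windows printed above. A match is a stretch of letters and not a measured binding site, and these libraries hold no binding data.

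Total counts ranged from 14754440 to 23975636 per library, and 1.49% to 2.24% of counts were mitochondrial. Bcl6 itself had 64.6 and 61.0 FPKM (the authors' value scaled for length and depth) in the in vitro libraries labelled KO, against 24.9 and 21.9 FPKM in those labelled WT. In vivo it had 8.81 and 14.4 FPKM under the KO label and 11.5 and 13.9 FPKM under the WT label. A gene-level value also counts reads outside the deleted part, so it does not check the labels, and libraries are named by label throughout. Summed FPKM of 7 T cell markers ranged from 968 to 1251 across libraries. In vitro it was 1217 and 1251 under the KO label and 1135 and 1055 under the WT label. There 4 of the 7 rose and 1 fell past the threshold, beside 20.1% and 17.7% of all tested genes. In vivo 0 of the 7 passed. In vivo, KO replicate 1 stood apart. Lyz2, a myeloid gene, had 109 and 15.7 FPKM in the KO libraries and 25.6 and 10.7 FPKM in the WT libraries. Summed FPKM of the 5 of 6 myeloid markers with a row was 307 and 164 under the KO label and 139 and 76.3 under the WT label. Fcer1g held most of these sums, with 187 and 146 FPKM in KO and 110 and 64.5 FPKM in WT libraries. Csf1r had 7.59 and 0.725 FPKM in KO and 1.73 and 0.646 FPKM in WT libraries. Itgam had 0.534 and 0.224 FPKM in KO and 0.143 and 0.148 FPKM in WT libraries. Summed FPKM of 6 innate-like T and NK cell markers in vivo was 369 and 332 under the KO label. It was 351 and 223 under the WT label. Which cells the Fcer1g transcript came from was not tested. Summed FPKM of 6 B cell markers was 25.8 and 18.3 under the KO label and 14.03 and 4.37 under the WT label in vivo. In vitro the B cell markers Ms4a1, Ebf1 and Pax5 and the myeloid markers Lyz2, Csf1r, Cd14 and Itgax had no row. Cd79a and Cd79b, the B cell markers with a row in vitro, rose by 0.98 and 0.90 on the log2 scale (edgeR adjusted p = 0.0246 and 0.00574), and their summed FPKM was 5.06 and 5.76 under the KO label and 2.95 and 2.85 under the WT label. Summed FPKM of 5 regulatory T cell markers was 92.7 and 93.3 in the in vitro KO libraries and 145 and 150 in the in vitro WT libraries. In vivo it was 76.5 and 110 in the KO libraries and 108 and 156 in the WT libraries. Ikzf2 held most of the in vitro sums, with 74.7 and 70.6 FPKM in KO and 116 and 123 FPKM in WT libraries. Foxp3 had 0.296 and 0.342 FPKM in KO and 0.373 and 0.468 FPKM in WT libraries in vitro, below the filter. There edgeR called Ikzf2 and Il2ra lower and Ctla4 higher. The coreceptor genes Cd4, Cd8a and Cd8b1 summed to 31.8 and 96.8 FPKM in the in vivo KO libraries and 32.5 and 62.3 FPKM in the in vivo WT libraries. In vitro Cd4 rose by 0.72 and Cd8b1 by 0.76, while Cd8a fell by 0.42 (edgeR adjusted p = 0.000170, 0.0143 and 0.00810). Sox13, a gamma delta T cell marker, had 48.4 and 31.4 FPKM in the in vivo KO libraries and 21.0 and 15.4 FPKM in the in vivo WT libraries (edgeR adjusted p = 0.105). Of 6 heat shock genes that respond to handling, 4 had a row in vitro, without Hspa1a and Hspa1b, and all 6 had a row in vivo. Their summed FPKM was 584 and 590 in the in vitro KO libraries and 1010 and 785 in the in vitro WT libraries. In vivo it was 302 and 330 in the KO libraries and 209 and 191 in the WT libraries. The part of these genes in the results below was not tested.

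Egr3 was the member that changed most in the stimulated cells. It had 20.3 and 19.9 FPKM in the in vitro libraries labelled KO, against 6.66 and 6.03 FPKM in those labelled WT. Both KO libraries stood above both WT libraries, with a gap far wider than the spread within either label. The raw counts behind these values were 1584 and 1907 for KO and 705 and 434 for WT. The fold change was 3.22, a log2 change of 1.69 with a standard error (SE) of 0.09 and a 95% interval of 1.48 to 1.89 (edgeR quasi-likelihood test, adjusted p = 9.76e-07). It had the 11th smallest p among the 9658 genes tested. In bulk RNA a difference in transcript per cell and a difference in the share of cells that express the gene cannot be told apart. Egr3 (ENSMUSG00000033730.4) lies at chr14:70077203-70082614 on the plus strand of GRCm38.

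Egr3 in the precursors sorted from the thymus was close to level between labels. The KO libraries had 29.1 and 29.6 FPKM, against 27.7 and 27.4 FPKM in the WT libraries. The labels did not overlap, but the log2 change was 0.08 (SE 0.09, 95% interval -0.13 to 0.30, edgeR adjusted p = 0.784), and 0.09 without KO replicate 1. The interval does not reach the in vitro change. The effect of the KO label on Egr3 was 1.58 lower in vivo than in vitro on the log2 scale (SE 0.12, edgeR test of the difference over all 8 libraries, adjusted p = 0.000151), which was the 4th smallest p of 9364 genes. By group mean the order of Egr3 from high to low was KO in vivo, WT in vivo, KO in vitro and WT in vitro, and no neighbours in that order overlapped. Levels in the systems are set side by side without a test, because the libraries were made by different companies (Novogene in vitro, BGI Genomics in vivo), so system and company cannot be told apart.

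**Figure D1:**
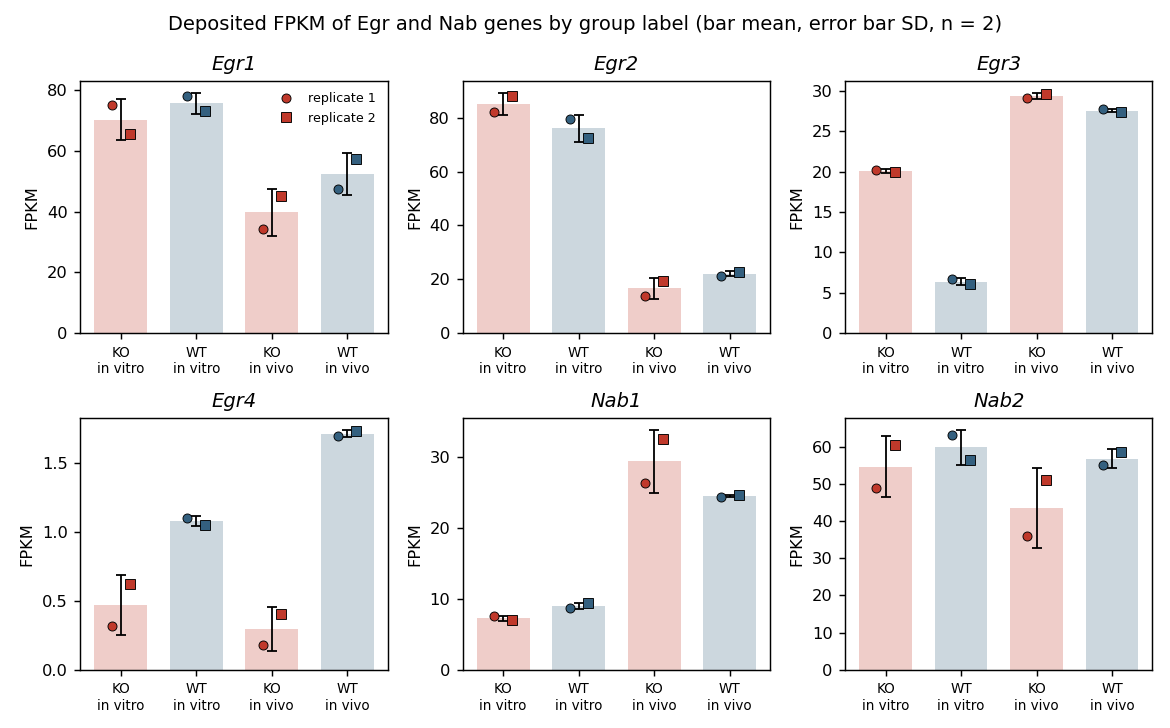
FPKM of Egr1, Egr2, Egr3, Egr4, Nab1 and Nab2 by group label, with KO left of WT in each system. Bars are means, error bars SD and points the 2 libraries of each group. Egr3 in vitro sits near 20 FPKM in both KO libraries, well above both WT libraries, and Egr4 is under 1 FPKM in every KO library.

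Egr2 did not pass the test in either system. In vitro it had 82.1 and 88.0 FPKM under the KO label and 79.5 and 72.5 FPKM under the WT label. All KO values lay above all WT values, with a gap smaller than the spread within either label. The log2 change was 0.19 (SE 0.09, 95% interval -0.0027 to 0.38, edgeR adjusted p = 0.111). In vivo Egr2 had 13.9 and 19.3 FPKM under the KO label and 21.3 and 22.7 FPKM under the WT label. Here both KO libraries were below both WT libraries, and KO replicate 1 was the lowest. Among the in vivo libraries it also had the most Lyz2 and the least Cd4, Cd5 and Foxp3. The part of these genes in the Egr2 values was not tested. The log2 change of Egr2 was -0.41 (SE 0.16, 95% interval -0.81 to -0.02, edgeR adjusted p = 0.325). Without KO replicate 1 it was -0.20 and without KO replicate 2 it was -0.66. Effects in the systems differed by -0.57 for Egr2, in vivo minus in vitro (SE 0.18, edgeR adjusted p = 0.0577), which missed the threshold. Egr2 (ENSMUSG00000037868.15) lies at chr10:67535475-67542188 on the plus strand of GRCm38. Its group means ran, high to low, KO in vitro, WT in vitro, WT in vivo and KO in vivo, with no overlap between neighbours.

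Egr1, the family member most tied to ERK and SRF, was among the highest of the members in both systems and did not pass the test. In vitro it had 75.1 and 65.7 FPKM in the libraries labelled KO and 78.1 and 73.3 FPKM in those labelled WT, and the labels overlapped. The log2 change was -0.08 (SE 0.09, 95% interval -0.28 to 0.13, edgeR adjusted p = 0.531). In vivo it had 34.4 and 45.3 FPKM in the libraries labelled KO and 47.6 and 57.4 FPKM in those labelled WT. The KO libraries lay below the WT libraries with a gap smaller than the spread within either label, and KO replicate 1 was again the lowest. The log2 change was -0.41 (SE 0.16, 95% interval -0.80 to -0.01, edgeR adjusted p = 0.339), and over left-out libraries it ranged from -0.61, without KO replicate 2, to -0.23, without KO replicate 1. The difference between systems was -0.30 (SE 0.19, edgeR adjusted p = 0.310), and ranged from -0.50 to -0.12 over left-out libraries. Egr1 (ENSMUSG00000038418.7) lies at chr18:34859823-34864984 on the plus strand of GRCm38. The order of its group means, high to low, was WT in vitro, KO in vitro, WT in vivo and KO in vivo, and the ranges of both in vitro groups overlapped.

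Egr4, the remaining EGR factor, was scarce under every label and lowest in the KO libraries of both systems. In vitro it had 12 and 29 counts in the KO libraries, against 57 and 37 in the WT libraries. In vivo it had 6 and 14 counts in the KO libraries and 61 and 60 in the WT libraries. The pooled count ratio of KO over WT was 0.455 in vitro (95% exact binomial interval 0.307 to 0.663) and 0.173 in vivo (0.102 to 0.278), and these intervals cover counting error only. Egr4 passed the filter on low values only through the WT libraries, so its inclusion favours a difference. In vitro the fall passed the edgeR test, with a log2 change of -1.14 (SE 0.33, adjusted p = 0.0186), but not with DESeq2 (adjusted p = 0.0781) or without KO replicate 1 (-0.77, adjusted p = 0.128). In vivo the log2 change was -2.53 (SE 0.40, adjusted p = 0.0552) and missed the threshold. It passed with DESeq2 (0.00514), upper-quartile factors (0.0408), library totals (0.0473), robust edgeR (0.0396), the joint fit of all libraries (0.00749) and limma (0.0301 and 0.0496). Without KO replicate 1 it was -2.08 (edgeR adjusted p = 0.160). The difference between systems was -1.36 (SE 0.55, edgeR adjusted p = 0.115). Egr4 (ENSMUSG00000071341.4) lies at chr6:85511121-85513589 on the minus strand of GRCm38.

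Nab1, the more broadly expressed corepressor, fell in vitro, while its in vivo change had the other sign and did not pass. In vitro it had 7.51 and 6.95 FPKM in the libraries labelled KO, against 8.71 and 9.33 FPKM in those labelled WT. No KO library reached a WT library. Nab1 fell by 0.29 on the log2 scale in vitro (SE 0.10, 95% interval -0.51 to -0.08, fold 0.817, edgeR adjusted p = 0.0369). Leaving out any 1 of the 4 libraries ended this call, with adjusted p from 0.0556 to 0.184, as did DESeq2 (adjusted p = 0.0950). In vivo Nab1 had 26.2 and 32.5 FPKM under the KO label and 24.4 and 24.6 FPKM under the WT label. The KO libraries lay above the WT libraries and spread widely, and the log2 change of 0.25 did not pass (SE 0.12, 95% interval -0.04 to 0.55, edgeR adjusted p = 0.437). Without KO replicate 1 it was 0.39 and without KO replicate 2 it was 0.10, neither past the threshold. Its difference between systems was 0.57, in vivo minus in vitro (SE 0.16, edgeR adjusted p = 0.0303). That call was lost without 6 of the 8 libraries in turn, where the value ranged from 0.42 to 0.61. Nab1 (ENSMUSG00000002881.14) lies at chr1:52457294-52500679 on the minus strand of GRCm38. Its group means ran, high to low, KO in vivo, WT in vivo, WT in vitro and KO in vitro, with no overlap between neighbours.

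Nab2, the corepressor induced with the EGR factors, did not pass the test in either system. In vitro it had 49.0 and 60.5 FPKM under the KO label and 63.3 and 56.5 FPKM under the WT label, and the labels overlapped. The log2 change was -0.10 (SE 0.10, 95% interval -0.33 to 0.13, edgeR adjusted p = 0.469). In vivo it had 35.9 and 51.1 FPKM under the KO label and 55.1 and 58.7 FPKM under the WT label. KO replicate 1 was the lowest library for Nab2, as it was for Egr1 and Egr2. The log2 change was -0.39 (SE 0.17, 95% interval -0.80 to 0.015, edgeR adjusted p = 0.373), and it was -0.17 without KO replicate 1 and -0.66 without KO replicate 2. The difference between systems was -0.26 (SE 0.21, edgeR adjusted p = 0.432), and ranged from -0.53 to -0.04 over left-out libraries. Nab2 (ENSMUSG00000025402.12) lies at chr10:127660918-127668568 on the minus strand of GRCm38. Its group means ran, high to low, WT in vitro, WT in vivo, KO in vitro and KO in vivo, and each pair of neighbours overlapped. The gene body overlaps opposite-strand genes, Stat6 by 40 bases, Nemp1 by 1668 and the antisense Gm16229 by 1646. The strand setting of the counting is not given in the sources used here, so reads in those stretches cannot be told apart. Stat6 had a mean of 73.7 FPKM in the KO and 84.2 FPKM in the WT libraries in vitro, and of 67.7 FPKM in the KO and 71.5 FPKM in the WT libraries in vivo. Nemp1, with the longest overlap, had a mean of 5.78 FPKM in the KO and 6.395 FPKM in the WT libraries in vitro. In vivo its mean was 6.385 FPKM in the KO and 5.74 FPKM in the WT libraries. The part of these genes in the Nab2 values was not tested.

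Counted together, 1 of the 5 members rose and 1 fell in vitro, where 20.1% of all tested genes rose and 17.7% fell, 37.8% in either direction. None of the 5 passed in vivo with edgeR or with DESeq2, where 1.10% of all genes passed, 0.284% rising and 0.821% falling. Egr1 and Egr2 had an unadjusted p under 0.05 there, as did 1445 of all 10227 genes tested. For the difference between systems 2 of 5 passed, Egr3 lower and Nab1 higher in vivo, against 16.4% of all genes, 6.57% higher and 9.81% lower. In FPKM the labels did not overlap for 3 of 5 members in vitro and for 5 of 5 in vivo, which is read against 71.1% and 43.4% of all tested genes. The median log2 change of the members was -0.08 in vitro and -0.39 in vivo, and that of all tested genes was -0.0028 and -0.0036.

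**Figure D2:**
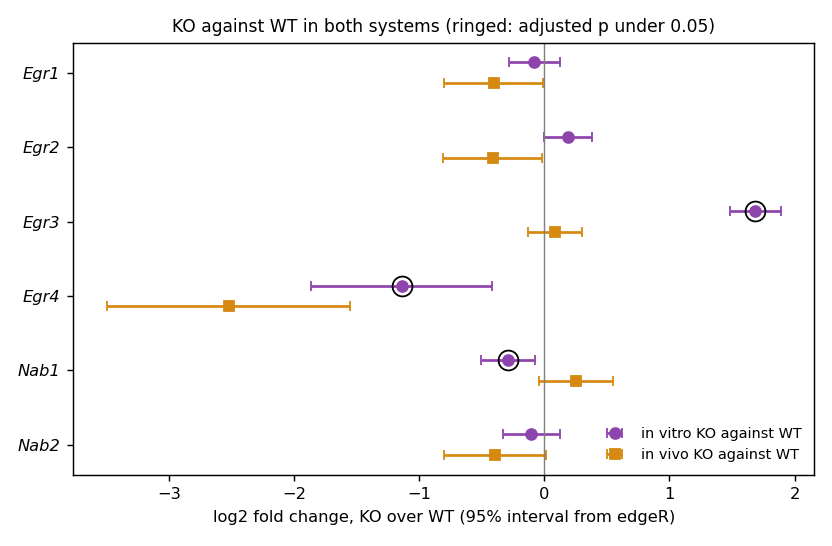
Log2 fold change of KO over WT for each gene in vitro (circles) and in vivo (squares), with 95% intervals from edgeR, and rings where the adjusted p is under 0.05. Egr3 in vitro lies at 1.69, far from its in vivo value of 0.08, and Nab1 lies on opposite sides of 0.

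Egr3 took a larger share of the EGR transcripts in the in vitro KO libraries. Egr3 made up 11.4% and 11.5% of the summed FPKM of Egr1, Egr2 and Egr3 in the libraries labelled KO, against 4.06% and 3.97% in those labelled WT. Per length, Egr3 was 0.247 and 0.227 of Egr2 in the KO libraries and 0.0838 and 0.0831 of Egr2 in the WT libraries. Egr1 and Egr2 still made up most of the sum under both labels, so the total of the 3 was 177 and 174 FPKM for KO and 164 and 152 FPKM for WT. In vivo Egr3 took a larger share, 37.6% and 31.4% under the KO label and 28.7% and 25.5% under the WT label. Its higher KO share there came with lower Egr1 and Egr2 values and a nearly level Egr3.

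The ranking of the members by FPKM, a per-length scale, differed with label and system. In vitro Egr1 and Egr2 led and Nab2 followed under both labels. Egr3 stood above Nab1 in both KO libraries, while Nab1 stood above Egr3 in both WT libraries. In vivo Nab2 and Egr1 led, and Egr2, which had led in vitro, was the lowest of the 5 under both labels. Egr2 over Egr1 was 1.09 and 1.34 in the in vitro KO libraries and 1.02 and 0.989 in the in vitro WT libraries. The same ratio was 0.405 and 0.427 in the in vivo KO libraries and 0.449 and 0.395 in the in vivo WT libraries.

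Nab2 was lower relative to Nab1 in the in vivo KO libraries. The ratio of Nab2 to Nab1 in FPKM was 1.37 and 1.57 in the in vivo KO libraries and 2.26 and 2.39 in the in vivo WT libraries. In vitro it was 6.53 and 8.69 under the KO label and 7.26 and 6.06 under the WT label, and the labels overlapped. Nab2 over Egr2 was nearly constant in vivo, 2.58 and 2.64 in KO libraries and 2.58 and 2.59 in WT libraries. In vitro the same ratio was 0.597 and 0.687 under the KO label and 0.795 and 0.779 under the WT label, so there was less Nab2 transcript per Egr2 transcript in KO libraries. Summed Nab FPKM was 31.8% and 38.8% of summed Egr FPKM in the in vitro KO libraries and 43.8% and 43.4% in the WT libraries. In vivo it was 80.3% and 88.7% under the KO label and 82.2% and 77.5% under the WT label. With 2 libraries a label these ratios are descriptions without a test.

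**Figure D3:**
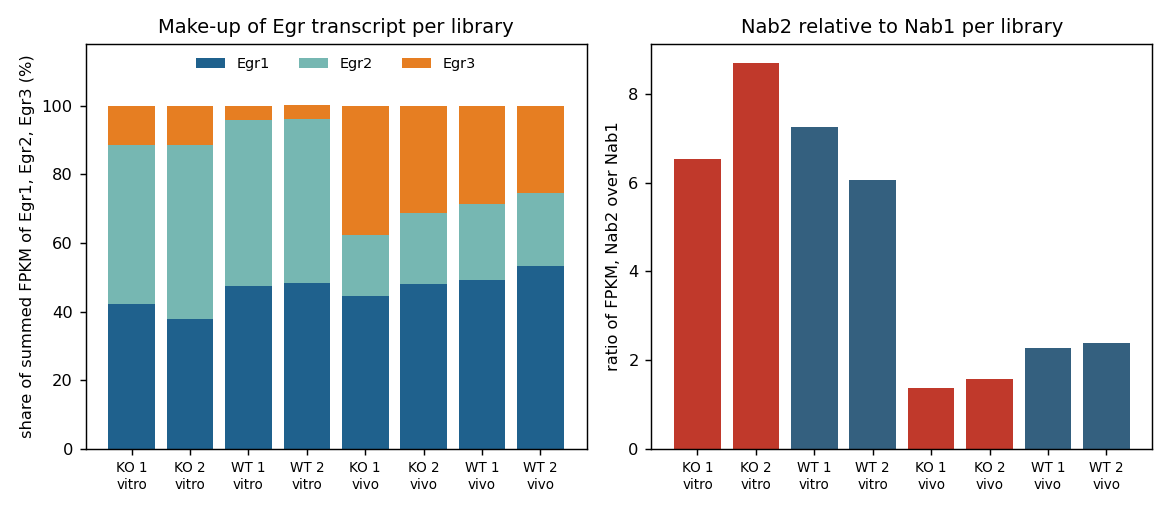
Left, share of the summed FPKM of Egr1, Egr2 and Egr3 held by each gene in every library, and right, the ratio of Nab2 to Nab1 FPKM (KO red, WT blue). The Egr3 share in vitro is about 11% under the KO label and 4% under the WT label, and Nab2 over Nab1 in vivo is lower in both KO libraries than in both WT libraries.

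After each system's mean was subtracted, Egr1, Egr2 and Nab2 were positively correlated over the 8 libraries. Pearson's r was 0.79 for Egr1 with Egr2, 0.79 for Egr1 with Nab2 and 0.84 for Egr2 with Nab2. Egr3 did not follow them, at -0.17 with Egr1, 0.30 with Egr2 and -0.20 with Nab2, and Nab1 ran against Egr3 at -0.62. These are descriptions over 8 libraries that differ in depth and label. In vivo KO replicate 1 had the lowest in vivo value of Egr1, Egr2 and Nab2 alike. Between the in vitro KO libraries the genes did not move together. From replicate 1 to replicate 2 there, Egr1 fell from 75.1 to 65.7 FPKM, while Egr2 rose from 82.1 to 88.0 FPKM and Nab2 from 49.0 to 60.5 FPKM. Of 9164 genes compared, those most like Egr3 were Tlr1 (r = 0.997), a bacterial lipopeptide receptor, Stk10 (0.99), a kinase that acts on the cytoskeleton, and Tle3 (0.99), a Groucho corepressor. Each of these had a called rise in vitro, of 3.20, 0.91 and 0.56 on the log2 scale, and -0.05, -0.01 and 0.01 in vivo. They were picked over these same libraries, where Egr3 differed mainly by label in vitro, so that pattern follows from the choice. Those most like Egr1 were Zc4h2 (0.99), Trp53inp2 (0.97) and Tank (0.96), and those most like Egr2 were Smad2 (0.97), Atxn7l2 (0.97) and Rpain (0.97). For Nab2 they were Rad52 (0.97), Zfp703 (0.95) and Dcun1d4 (0.95), and for Nab1 Lsm3 (0.97), Mcu (0.96) and Ythdf1 (0.96).

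The routes that switch on the EGR factors were described next. Of 15 calcium and NFAT genes tested, 5 rose and 0 fell in vitro, where 20.1% of all tested genes rose and 17.7% fell. Itpr3, the endoplasmic calcium channel, had 16.2 and 15.7 FPKM in KO and 5.44 and 6.30 in WT libraries, a log2 change of 1.47 (SE 0.09, edgeR adjusted p = 1.54e-06). Ppp3ca, the calcineurin catalytic subunit, rose by 0.86, the factor Nfatc2 by 0.71 and the calcium sensor Stim1 by 0.56. In vivo none of the 15 passed with edgeR, and 2 had an unadjusted p under 0.05. DESeq2 called 1 of them higher in vivo, beside 260 of all 10227 tested genes. The list's median was 0.14 in vivo against 0.16 in vitro. Of 20 genes from Ras to SRF, 5 rose and 4 fell in vitro, near the shares of all tested genes, with a median of 0.07. The kinases Mapk3 (ERK1) and Rps6ka1 rose by 1.12 and 0.84, and the SRF coactivator Mrtfa rose by 0.45. Srf itself had a log2 change of -0.23 that missed the threshold (edgeR adjusted p = 0.0999). Without KO replicate 1 or without WT replicate 1 the counts were 3 risen and 2 fallen. In vivo 1 of 20 passed, beside 1.10% of all tested genes. This was Elk3, an ETS partner of SRF that represses in the absence of Ras signal. It had 27.9 and 29.3 FPKM in KO and 44.6 and 45.9 FPKM in WT libraries, a log2 change of -0.67 (SE 0.09, edgeR adjusted p = 0.0393). That call was lost without KO replicate 1 (-0.64), KO replicate 2 (-0.69) or WT replicate 2 (-0.64). It was also lost with limma on log2(FPKM + 1) (adjusted p = 0.0541) and on log2(FPKM + 0.1) (adjusted p = 0.0795). In vitro Elk3 also fell, by 0.36 (edgeR adjusted p = 0.00548).

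Among other early response genes in vitro, 17 of 36 tested fell, 7 rose and 12 did not pass, beside 17.7% falling and 20.1% rising over all tested genes. The list's median was -0.31. The orphan nuclear receptor Nr4a2 had 33.1 and 34.7 FPKM in KO and 110 and 110 FPKM in WT libraries, a fall of 1.67 (SE 0.08, edgeR adjusted p = 7.55e-07). Spry1, a feedback inhibitor of ERK signalling, fell by 1.45 and Nr4a3 by 1.21. Atf3, a stress-induced factor, had 110 and 85 counts in KO libraries and 0 and 0 in WT libraries, at least 33.9-fold higher with 3 counts taken as each WT library's floor. It reached 1 FPKM only in the KO libraries, so it had to differ to be counted among the 7, and the stricter filter left 6 risen. Fos, the partner of Jun, had a log2 change of -0.35 that missed the threshold (edgeR adjusted p = 0.141). In vivo 1 of 39 passed, beside 1.10% of all tested genes. This was Nr4a2, with 5.78 and 8.02 FPKM in KO and 19.3 and 26.7 FPKM in WT libraries (log2 change -1.75, SE 0.22, edgeR adjusted p = 0.0362). That call was lost without KO replicate 1 (-1.53) or WT replicate 2 (-1.49). It was also lost with limma on log2(FPKM + 0.1) (adjusted p = 0.0555). DESeq2 called 4 of the list lower, beside 245 of all 10227 tested genes. Summed FPKM of the heat shock genes given above was lower in KO libraries in vitro and higher in vivo. In vitro 3 of the 4 with a row fell past the threshold, and Dnajb1 did not pass (-0.06). In vivo 2 of 6 rose, Hspa1a and Hspa1b. Over all tested genes 17.7% fell in vitro and 0.284% rose in vivo. The part of the heat shock genes in the early response counts was not tested.

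Genes that earlier literature on T cells gives as EGR targets were taken as a list. Of 23 tested in vitro, 11 rose and 4 fell, beside 20.1% rising and 17.7% falling over all tested genes, and their median was 0.25. The share that fell was near that of all genes. Id2, an E protein inhibitor, had 6.98 and 6.12 FPKM in KO and 1.504 and 2.16 FPKM in WT libraries, a rise of 1.89 (SE 0.19, edgeR adjusted p = 3.32e-05). Bcl2, the survival factor, rose by 0.96 and Il2rb, a cytokine receptor chain, by 0.91. Bcl6, the targeted gene, is on the list too and rose by 1.45. In vivo 2 of 30 passed, both lower under the KO label, beside 0.821% falling over all tested genes. Lag3, a coinhibitory receptor, had 2.73 and 2.96 FPKM in KO and 12.1 and 14.6 FPKM in WT libraries (log2 change -2.23, SE 0.17, edgeR adjusted p = 0.0179), and the call was lost without WT replicate 2 (0.0547). Id3, the target best known in thymocytes, had 45.7 and 51.9 FPKM in KO and 78.4 and 92.5 FPKM in WT libraries in vivo (log2 change -0.82, SE 0.12, edgeR adjusted p = 0.0471). That call was lost without KO replicate 1 (-0.73), KO replicate 2 (-0.90) or WT replicate 2 (-0.69). It was also lost with the size factors of DESeq2 in edgeR (adjusted p = 0.0518). The same held with limma on log2(FPKM + 1) (adjusted p = 0.0626) and on log2(FPKM + 0.1) (adjusted p = 0.0915). DESeq2 itself called 4 genes of this list lower, beside 245 of all 10227 tested genes. In vitro Id3 rose by 0.77, with 185 and 234 FPKM in KO and 130 and 121 FPKM in WT libraries. Its difference between systems was -1.56 (SE 0.18, edgeR adjusted p = 0.000694).

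The NuRD complex, through which NAB proteins repress, was listed with 13 genes. In vitro 2 rose and 2 fell, beside 20.1% and 17.7% of all tested genes. Mta3 rose by 0.61 and the remodeller Chd3 by 0.31, while the deacetylases Hdac1 and Hdac2 fell by 0.42 and 0.31. Chd4, the subunit that NAB proteins bind, had a log2 change of -0.11 (edgeR adjusted p = 0.423). The Chd3 call was lost without KO replicate 2 (0.208) or WT replicate 2 (0.0895), and the Hdac2 call without KO replicate 2 (0.0650) or WT replicate 2 (0.0535). In vivo 0 of 13 passed with edgeR or DESeq2, with 1 at an unadjusted p under 0.05. Of 9 other regulators of EGR activity, 3 rose and 1 fell in vitro, beside the same shares of all genes. Cited2, which binds CBP and p300, rose by 0.52, and Nfkb1 fell by 0.45. The acetyltransferases Ep300 and Crebbp rose by 0.26 and 0.22, and both calls were lost when any 1 of the 4 libraries was left out, with adjusted p from 0.0616 to 0.175. In vivo 0 of the 9 passed with edgeR or DESeq2, and 0 had an unadjusted p under 0.05.

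**Figure D4:**
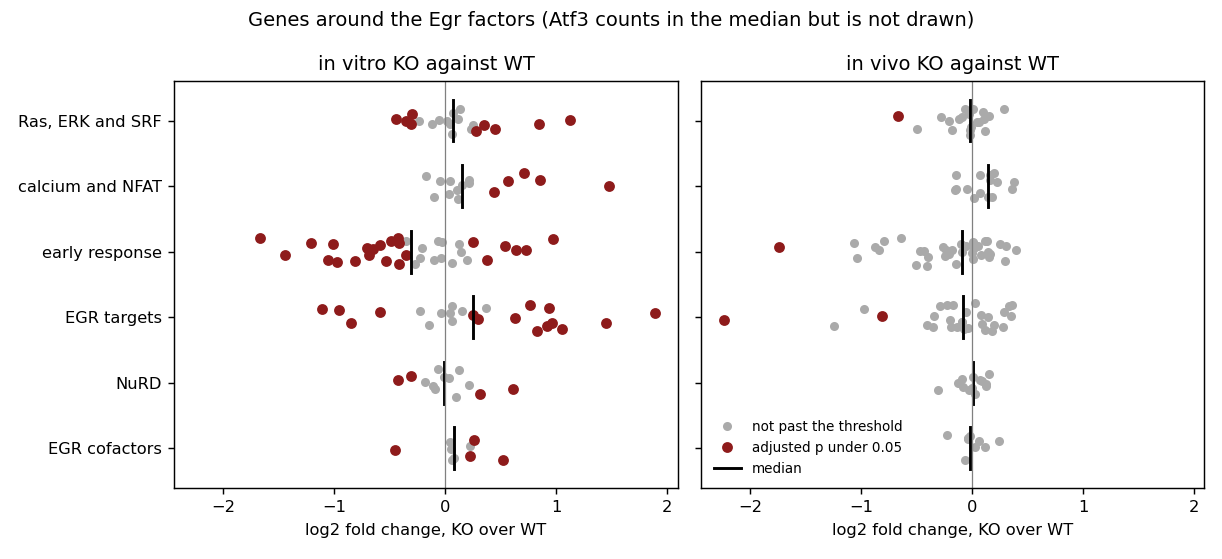
Log2 fold change of KO over WT for genes around the EGR factors, in vitro left and in vivo right. Each point is a gene, dark points passed the adjusted p threshold, and bars are list medians; Atf3 counts in the median but is not drawn. In vitro 17 early response genes passed below 0 and 7 above it, counting Atf3, the 5 calcium and NFAT genes that passed lie above it, and few in vivo points passed.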

How the data were processed

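Whole-number counts and FPKM per gene were deposited by the authors, 1 table per library. Build mm10 and the tools DESeq2, RSEM, Subread, featureCounts, Bowtie2 and Trim Galore 0.4.4 appear, with no role given, in the submitters' processing notes. Annotation, strand setting and which tool made the deposited counts are not stated there. FPKM of the authors was used for levels and counts for tests. The smallest mean count of any gene within a system was 5.

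Counts were tested per system on 4 libraries with the quasi-likelihood test of edgeR 4.0.16 (R 4.3.3, TMM factors, no replicate term) over genes that reached 1 FPKM in 2 or more libraries, 9658 in vitro and 10227 in vivo. The difference between systems used all 8 libraries and 9364 genes. Tests were two-sided, with Benjamini-Hochberg adjustment over all genes and a threshold of 0.05. Replicates of a group differed beyond sampling noise (chi-square per degree of freedom, 9.75 to 20). Alternatives were other scalings and filters, DESeq2 1.42.0, limma 3.58.1 on log2(FPKM + 1) and log2(FPKM + 0.1), a replicate block, a joint fit and leaving out each library. Where 1 library is left in a group, it is assumed to vary like the others. The procedure was tested on simulated data. The members and lists were chosen with earlier results of these data known. Genes named beyond the members are up to 4 per list and system with the smallest adjusted p past the threshold, the 3 genes most correlated with each member, and markers. Results for some of these genes are not reported here. Srf, Fos, Chd4 and the in vitro values of Elk3 and Id3 were added after their values were seen. Gene coordinates come from GENCODE M21 (GRCm38), and promoters from RefSeq GRCm38.p6.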

Additional observations from a re-analysis of the deposited data

Results flagged for a closer look

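The effect of the KO label differed between the systems for 2 of the members, by a test of the difference itself. For Egr3 the in vivo minus in vitro difference was -1.58 on the log2 scale (edgeR, adjusted p = 0.000151), from log2 changes of 0.08 in vivo and 1.69 in vitro. For Nab1 it was 0.57 (edgeR, adjusted p = 0.0303), from log2 changes of 0.25 in vivo and -0.29 in vitro. Groups of 2 libraries are too small for the check of outlying samples.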

How the results depend on the processing

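Egr3 kept its direction and call under all 16 alternatives in vitro (1.52 to 1.76) and under all 18 for the difference (-1.66 to -1.44). Nab1 in vitro lost its call with library totals only (-0.28, adjusted p = 0.0521), DESeq2 (-0.29, 0.0950), the joint fit (-0.29, 0.0734) and each left-out library (-0.35 to -0.24). Its difference lost the call with limma on log2(FPKM + 0.1) (0.57, 0.0544) and without 6 of 8 libraries (0.42 to 0.71). The Egr2 difference passed with upper-quartile factors (-0.60, adjusted p = 0.0419), library totals (-0.62, 0.0381), DESeq2 (-0.56, 0.0252) and without in vivo KO replicate 2 (0.00800), ranging from -0.82 to -0.36 over left-out libraries. Leaving out 1 library turned the in vitro direction of Egr1 (-0.18 to 0.0135) and Nab2 (-0.26 to 0.0388). The count of genes called in vivo was 505 with DESeq2 and 545 in the joint fit, against 113 with edgeR, and 7 to 279 over left-out libraries. For the difference it was 533 to 1816. The causes were not tested.

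Same-numbered replicates share only a number (correlation of deviations -0.305 in vitro and 0.459 in vivo, 2 pairs each), so the replicate block is given for the record. With the replicate block, 1078 genes were called in vivo, Egr1 (-0.41), Egr2 (-0.43) and Nab2 (-0.41) among them, with adjusted p of 0.0234, 0.0300 and 0.0431. Nab1 in vitro was -0.29 (0.0708) and the Egr2 difference -0.59 (0.0240) under the block. A crossed pairing in vitro, added after seeing the data, called Egr2 (0.19, adjusted p = 0.00984). It called 2546 genes higher and 2451 lower.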
